A study of Mus musculus with 10 samples.

Results

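The genes described here carry transforming growth factor beta (TGF-beta) and activin signals in the mouse right ventricle. They are the ligands Tgfb1, Tgfb2 and Tgfb3, the receptors Tgfbr1, Tgfbr2, Acvr1b and Bmpr1a, and the intracellular SMAD proteins Smad2, Smad3 and Smad7. All probe sets whose symbol in the array annotation was one of these 10 genes were taken, which gave 22 of the 22690 probe sets on the array, where 12394 genes had a probe set with 1 symbol. Each of the 10 genes had at least 1 probe set, and 15 of the 22 were bright enough to be tested.

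The tissue was the right ventricle of 10 mice, all of strain 129SV, and the total RNA of each mouse was hybridised to an Affymetrix array of its own. There were 4 trained plakoglobin (+/-) mice, 4 trained wildtype mice, 1 untrained plakoglobin (+/-) mouse and 1 untrained wildtype mouse. Plakoglobin, encoded by Jup, links cell-cell junctions of heart muscle to the cytoskeleton, and the (+/-) mice are heterozygous for it. Trained mice swam on 6 occasions a week at 35 °C, with sessions extended stepwise to 90 min. Trained mice were 6 months old, with 2 males and 2 females in each genotype, while the untrained pair were females aged 10 months. Training and age therefore cannot be told apart. Each untrained group holds a single mouse and has no replicate.

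TGF-beta ligands are secreted in a latent complex and, once released, bring the type II receptor Tgfbr2 and the type I receptor Tgfbr1 together. Activins act in the same manner through the type I receptor Acvr1b, and both routes phosphorylate Smad2 and Smad3, which enter the nucleus with Smad4. Bone morphogenetic proteins act through type I receptors such as Bmpr1a and phosphorylate Smad1, Smad5 and Smad9. Smad7 is an inhibitory SMAD whose gene is itself induced by the pathway. In the heart the pathway is best known for driving fibroblasts to deposit matrix.

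The arrays had been brought to 1 common level by the authors, and their median signals lay between 897.85 and 1149.6. On 3 arrays the GAPDH control gave a 3′ over 5′ ratio above 2, which can be a sign of degraded or incompletely copied RNA. The ratio was 17.8 for trained wildtype replicate 2, 2.5 for trained wildtype replicate 1 and 2.98 for trained plakoglobin (+/-) replicate 1, while the other 7 arrays lay between 0.849 and 1.02. Jup averaged 2526 ± 680 in trained plakoglobin (+/-) mice and 3613 ± 654 in trained wildtype mice (SD, n = 4 each; log2 -0.53, SE 0.24; limma adjusted p = 1). Among the untrained mice Jup ran against the labels, with 3156.9 in the mouse labelled plakoglobin (+/-) and 2386.8 in the mouse labelled wildtype.

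The first comparison set the 8 trained against the 2 untrained mice. Both untrained mice were females, and sex was a term of the fit. With all mice in the fit, each log2 training difference is therefore that of trained females against the untrained pair. Trained males enter only its error and the statements on overlap. A single probe set out of 15, one of Acvr1b, passed the test (limma, Benjamini-Hochberg adjusted p under 0.05 over 13576 probe sets). Of all probe sets tested 0.626% passed, 0.273% with a higher and 0.354% with a lower fitted signal in trained mice at equal sex. At an unadjusted p under 0.05 there were 3 of 15, beside 8.68% of all. By its brightest probe set, 0 of the 10 genes passed. The median log2 difference over the 15 probe sets was -0.03, beside 0.00 over all probe sets tested, and 6 were higher and 9 lower. In 4 of the 15 the trained and the untrained mice did not overlap, 2 with higher and 2 with lower signals in trained mice, beside 4.63% and 4.61% of all probe sets tested (9.24% in either direction).

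Acvr1b encodes ALK4, the type I receptor for activin and related ligands. Its probe set 1422098_at read 931.6, 1010.6, 1181.1 and 1191.1 in the trained plakoglobin (+/-) mice and 1172.1, 1186.6, 1610.2 and 753.1 in the trained wildtype mice, against 262 in the untrained plakoglobin (+/-) and 235.5 in the untrained wildtype mouse. All 8 trained mice lay well above both untrained mice, and the lowest of them was still more than the untrained signals put together. The log2 difference was 2.09 (SE 0.40; limma adjusted p = 0.0474). Both untrained signals were below the filter level of a mean signal of 661.1, so the probe set was tested only because of its signals in trained mice, and the fitted 4.26-fold difference depends on dim untrained values. An exact two-sided permutation test of the same signals gave p = 0.0222, the smallest that 45 labelings allow. The call is narrow: when single mice were left out, each of the 10 in turn, the difference stayed between 1.97 and 2.29, but the adjusted p lay between 0.0537 and 0.261 and the call was lost every time. With the 3 arrays of high GAPDH ratio left out, the difference was 2.02 (SE 0.54; limma adjusted p = 0.107).

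The brighter probe set of Acvr1b, 1433725_at, did not show this separation. It read 1584.2, 3040.8, 2186.2 and 3170.4 in trained plakoglobin (+/-) mice and 1933.2, 2815.8, 1954.2 and 2316.3 in trained wildtype mice, against 2426.8 in the untrained plakoglobin (+/-) and 2006.7 in the untrained wildtype mouse. Both untrained mice lay inside the range of the trained mice, and the log2 difference was 0.23 (SE 0.29; 95% interval -0.40 to 0.87). The intervals of the 2 probe sets do not meet, although both are annotated to Acvr1b. The difference was therefore measured by 1 of the 2 probe sets. The 2 probe sets are annotated to different source sequence records, and the part of the transcript that each reads was not analysed here.

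The promoter of Acvr1b is printed because it is the only gene of the 10 with a probe set past the test, and that of Tgfb1 because it is the ligand whose tested probe set did not overlap between trained and untrained mice. Both are the 250 bases before the annotated start from RefSeq (GRCm38.p6), on the plus strand, with capitals marking every GC box (GGGCGG on either strand), the element bound by Sp1-type factors. They lie at chr15:101173822-101174071 and chr7:25686752-25687001.
Acvr1b: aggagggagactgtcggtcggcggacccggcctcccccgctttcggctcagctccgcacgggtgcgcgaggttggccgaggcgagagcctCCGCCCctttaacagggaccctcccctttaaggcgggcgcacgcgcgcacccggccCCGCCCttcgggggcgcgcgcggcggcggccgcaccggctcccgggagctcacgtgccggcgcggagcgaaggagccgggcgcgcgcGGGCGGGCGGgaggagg
Tgfb1: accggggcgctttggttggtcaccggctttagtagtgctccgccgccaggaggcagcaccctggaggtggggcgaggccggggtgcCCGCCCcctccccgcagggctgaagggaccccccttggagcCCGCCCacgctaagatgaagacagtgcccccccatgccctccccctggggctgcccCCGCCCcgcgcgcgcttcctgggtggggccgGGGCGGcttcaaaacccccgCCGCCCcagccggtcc
There were 4 GC boxes in the Acvr1b window, 2 of them overlapping, and 5 in the Tgfb1 window, and 32.7% of 32851 mouse promoter windows of this length held at least 1. The SMAD box CAGAC, the short element that SMAD3 and SMAD4 bind, was searched on both strands too and was found in neither window, against 42.2% of all windows. Promoters of 7 of the 10 genes matched in the RefSeq table. The SMAD box was present in the windows of Tgfb2, of Tgfbr2 and of 1 of 2 annotated starts of Tgfbr1, and not in those of Bmpr1a and Smad3. These matches are letters in a window, and binding was not measured.

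**Figure D1:**
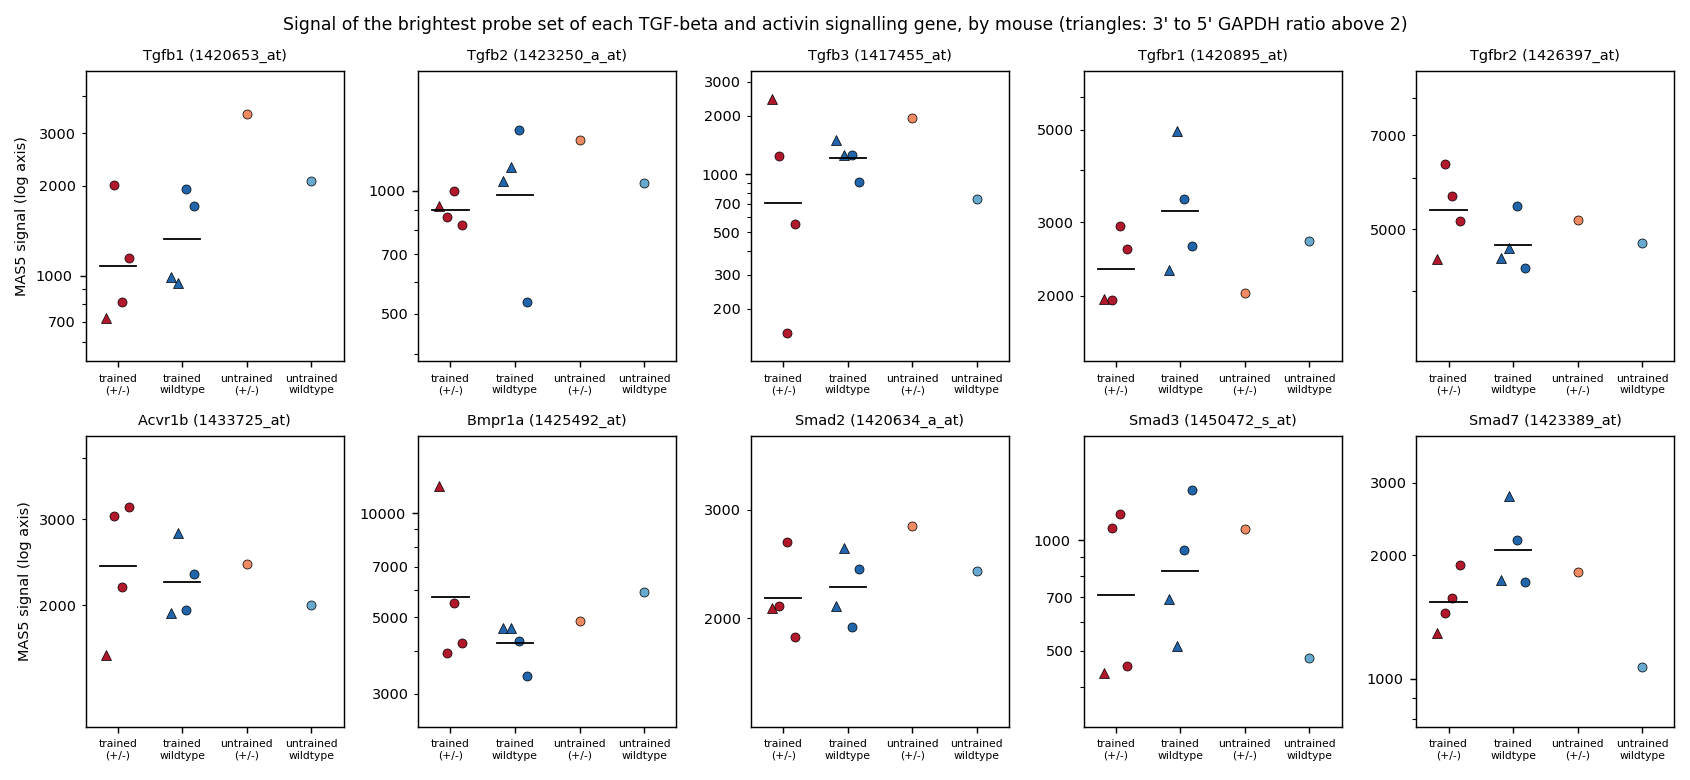
MAS5 signal (log axis) of the brightest probe set of each of the 10 genes in each mouse, by group, with bars at the geometric mean of groups of 4 and triangles for the 3 arrays of high GAPDH ratio. Only for Tgfb1 do both untrained mice, at 3482.4 and 2076.7, lie beyond all 8 trained mice.

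Among the ligands, Tgfb1, the isoform most linked to cardiac fibrosis, read 722.1, 2013.2, 815.1 and 1148.6 in trained plakoglobin (+/-) mice and 990.6, 942.1, 1955.2 and 1712.7 in trained wildtype mice, against 3482.4 in the untrained plakoglobin (+/-) and 2076.7 in the untrained wildtype mouse. Every trained mouse was below the untrained pair, with the highest trained mouse just under the untrained wildtype mouse. The log2 difference was -1.28 (SE 0.48; 95% interval -2.33 to -0.23) and did not pass over all probe sets (limma adjusted p = 0.431). Its size rested on single untrained mice: it was -0.76 when the untrained plakoglobin (+/-) mouse was left out and -1.80 when the untrained wildtype mouse was. In bulk tissue, fewer cells of a type and less RNA per cell cannot be told apart. Among 5 markers of macrophages and leukocytes, cells that make Tgfb1, 4 had a lower fitted signal in trained mice at equal sex, and 0 passed. C1qa and Ptprc were lower in every trained mouse, while Adgre1, Csf1r and Cd68 overlapped between trained and untrained mice. The summed signal of the markers overlapped too, between 14876 and 30184 in trained mice and between 25753 and 27566 in untrained mice. All 5 markers were above the filter, from Ptprc with a trained mean of 703.28 to Csf1r with 11620. Their part in the Tgfb1 values was not tested.

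Tgfb2, an isoform of heart development and valves, was read by 3 probe sets annotated to 1 source sequence record. The brightest, 1423250_a_at, read 919.1, 862.1, 998.1 and 826.6 in trained plakoglobin (+/-) mice and 1056.1, 1146.1, 1406.7 and 536.1 in trained wildtype mice, against 1331.7 in the untrained plakoglobin (+/-) and 1043.1 in the untrained wildtype mouse. The groups overlapped, and the log2 difference was -0.48 (SE 0.40; limma adjusted p = 0.837), or -0.23 without trained wildtype replicate 4. The other 2 were too dim to be tested and leaned the other way. On 1450923_at the trained mice lay between 450.5 and 943.6, all above the untrained mice at 409.6 and 401.5. On 1450922_a_at they lay between 212 and 647.1, against 278.5 and 91. No direction can be given for Tgfb2 from probe sets that disagree.

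Tgfb3, the third isoform, had 1 probe set and the widest spread of the ligands. It read 2453.3, 1233.1, 150 and 548.6 in trained plakoglobin (+/-) mice and 1495.7, 1250.7, 1255.1 and 913.6 in trained wildtype mice, against 1960.2 in the untrained plakoglobin (+/-) and 740.1 in the untrained wildtype mouse. Within the trained plakoglobin (+/-) group the 2 males were high and the 2 females low. The log2 difference of trained against untrained mice was -1.12 (SE 0.74, limma adjusted p = 0.776), and -0.38 with no sex term. It was -0.03 without the untrained plakoglobin (+/-) mouse, against -2.21 without the untrained wildtype mouse.

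Neither receptor of TGF-beta itself passed the test for training. Tgfbr2, the ligand-binding type II receptor, read 4485.5, 6309.2, 5621.6 and 5140.1 in trained plakoglobin (+/-) mice and 4508.5, 4676.1, 5425.1 and 4355 in trained wildtype mice, against 5173.6 in the untrained plakoglobin (+/-) and 4761.6 in the untrained wildtype mouse. Both untrained mice lay in the middle of the trained ones, and the log2 difference was -0.01 (SE 0.21; 95% interval -0.46 to 0.44). Its other 2 probe sets were not tested, with signals of 77 to 1279.7 and of 38.5 to 489.1 over the 10 mice. On the brighter of these, 1425444_a_at, the untrained mice read 1279.7 and 632.6 and the trained mice between 77 and 840.6.

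Tgfbr1, the type I receptor ALK5, read 1958.2, 1947.2, 2943.8 and 2591.3 in trained plakoglobin (+/-) mice and 2306.3, 4953.6, 3414.4 and 2633.3 in trained wildtype mice, against 2033.8 in the untrained plakoglobin (+/-) and 2707.8 in the untrained wildtype mouse (1420895_at). The highest value belonged to trained wildtype replicate 2, the array with the GAPDH ratio of 17.8 and the beta-actin ratio of 1.29. The log2 difference of trained against untrained mice was 0.43 (SE 0.28; limma adjusted p = 0.765), and 0.26 without that mouse. Its other 2 probe sets, not tested, overlapped between trained and untrained mice.

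Bmpr1a, the receptor ALK3 of bone morphogenetic proteins, was read by 5 tested probe sets annotated to 1 source sequence record, and these did not move together. Which part of the transcript each of them reads was not analysed here. On 1425494_s_at, whose suffix marks probes that can match more than 1 transcript, the trained plakoglobin (+/-) mice read 2994.9, 2289.7, 1524.2 and 1601.7 and the trained wildtype mice 1742.2, 2402.8, 1782.2 and 2359.8, against 3002.4 in the untrained plakoglobin (+/-) and 3354.9 in the untrained wildtype mouse. All trained mice were lower, by a hair in one case, with a log2 difference of -0.72 (SE 0.30; limma adjusted p = 0.522). On 1451729_at all trained mice were higher, at 1240.7 to 1771.2 with a median of 1410, against 1183.6 and 1082.6 in the untrained mice (log2 0.40, SE 0.27; limma adjusted p = 0.786). The remaining 3 probe sets had log2 differences of -0.42 (1425491_at), -0.30 and -0.03 with overlapping groups, and that of 1425491_at was -0.67 without the untrained plakoglobin (+/-) mouse and -0.18 with the untrained wildtype mouse left out. On the brightest, 1425492_at, trained plakoglobin (+/-) replicate 1 read 11951.4, above the 3377.4 to 5912.2 of the other mice. That array is one of the 3 of high GAPDH ratio.

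**Figure D2:**
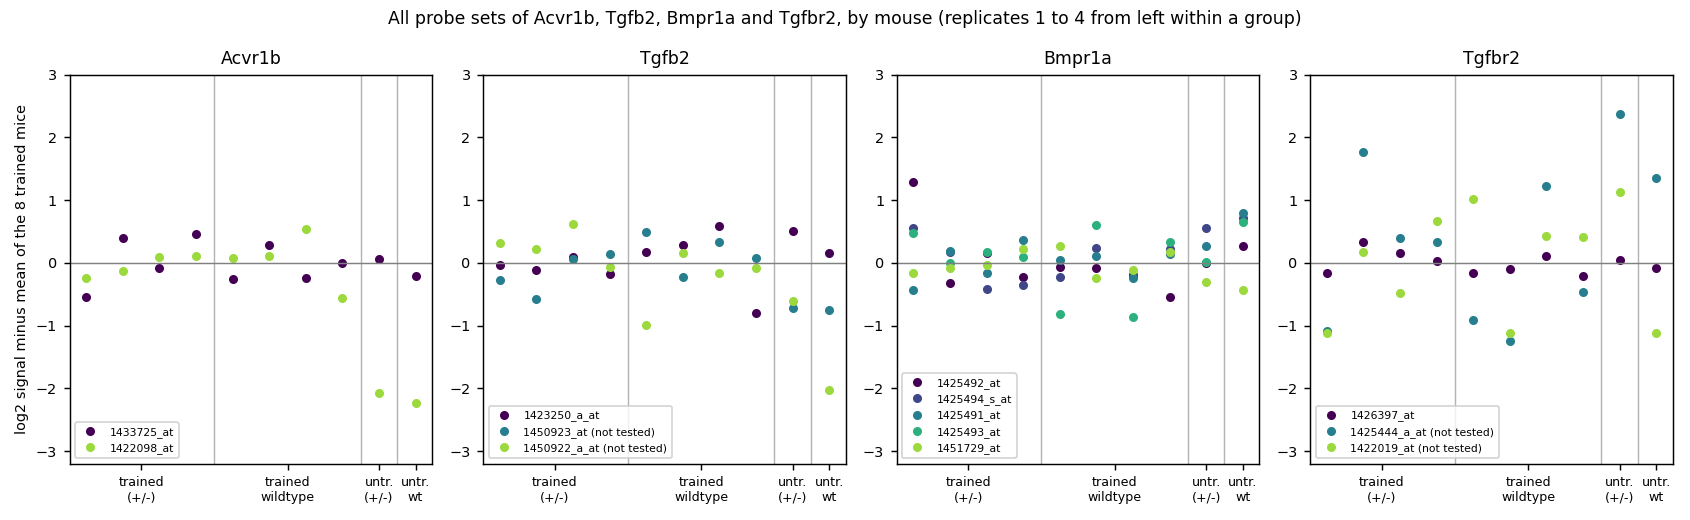
Log2 signal of every probe set of Acvr1b, Tgfb2, Bmpr1a and Tgfbr2 in each mouse, minus the mean of the 8 trained mice for that probe set, with signals under 104 set to 104 and groups parted by grey lines. On Acvr1b 1422098_at the untrained mice sit far below the trained ones, while on 1433725_at they sit among them.

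The SMAD proteins that carry the signal showed no difference past the test. Smad2 read 2081.3, 2093.2, 2664.3 and 1866.2 in trained plakoglobin (+/-) mice and 2092.2, 2604.3, 1932.2 and 2408.3 in trained wildtype mice, against 2825.9 in the untrained plakoglobin (+/-) and 2383.3 in the untrained wildtype mouse. The log2 difference of -0.14 (SE 0.23; 95% interval -0.64 to 0.37) left the groups overlapping. Smad3, the partner that binds DNA directly, varied more: its probe set 1450472_s_at read 436.1, 1079.1, 1179.1 and 454.6 in trained plakoglobin (+/-) mice and 690.1, 517.1, 941.6 and 1370.7 in trained wildtype mice, against 1069.1 in the untrained plakoglobin (+/-) and 479.1 in the untrained wildtype mouse. Its log2 difference was 0.13 (SE 0.61), with an interval of -1.22 to 1.49 that leaves large changes in both directions undetectable. The log2 difference turned to -0.55 without the untrained wildtype mouse and was 0.82 without the untrained plakoglobin (+/-) mouse.

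Smad7, the inhibitor, read 1294.2, 1446.7, 1568.7 and 1887.7 in trained plakoglobin (+/-) mice and 1735.7, 2789.3, 2177.7 and 1720.2 in trained wildtype mice, against 1824.7 in the untrained plakoglobin (+/-) and 1070.6 in the untrained wildtype mouse. The trained wildtype mice all lay above the untrained wildtype mouse, whereas 3 of the 4 trained plakoglobin (+/-) mice lay below the untrained one of their genotype. The log2 difference of training over both genotypes was 0.47 (SE 0.33; limma adjusted p = 0.8), and it was 1.07 with the untrained plakoglobin (+/-) mouse left out and -0.12 with the untrained wildtype mouse left out.

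**Figure D3:**
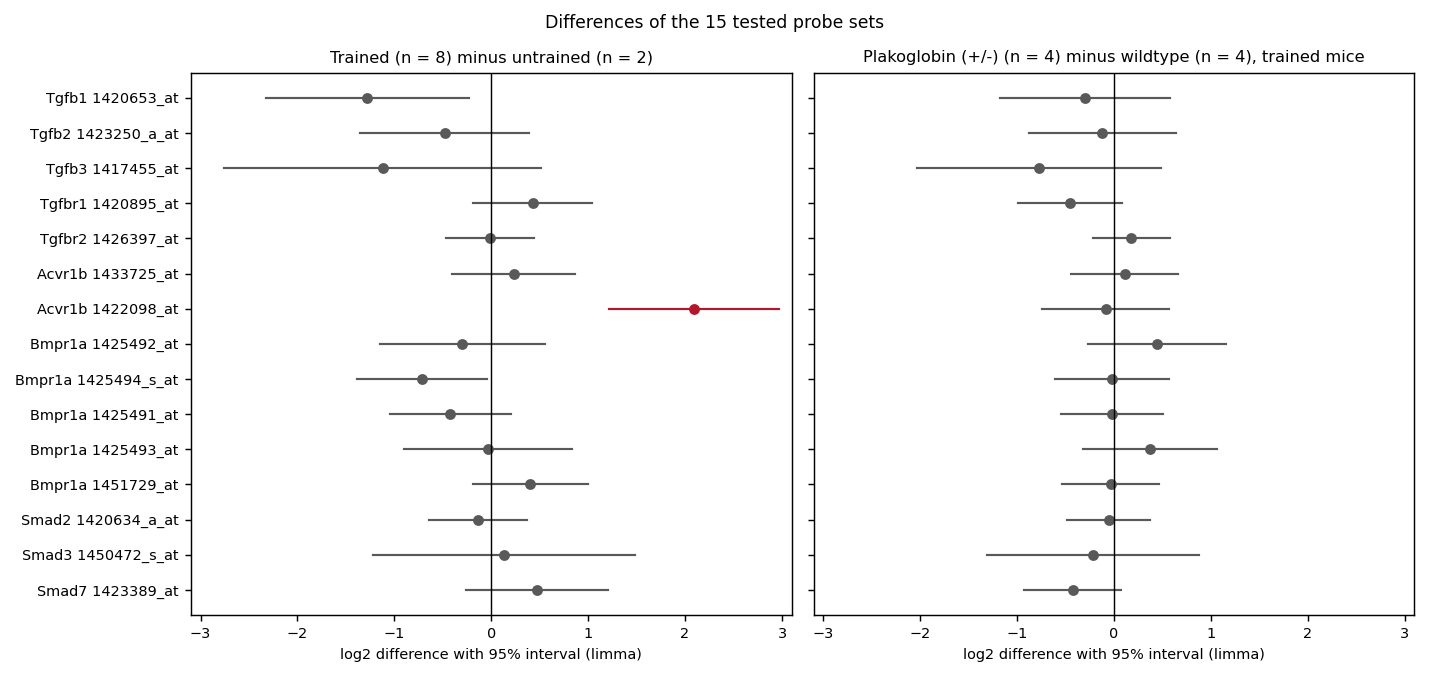
Log2 differences of the 15 tested probe sets with 95% intervals. Trained minus untrained mice are on the left, at equal sex, so that the difference rests on trained females. Plakoglobin (+/-) minus wildtype among trained mice is on the right. The red point, Acvr1b 1422098_at at 2.09, is the only one past the test.

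The second comparison asked whether these genes differed by genotype among trained mice. None of the 15 probe sets passed (limma, lowest adjusted p = 1), and 0% of all 13576 passed. At an unadjusted p under 0.05 the count was 0 of 15, beside 2.01% of all probe sets, and 0 of 15 separated the genotypes without overlap, beside 1.6% of all. The median log2 difference was -0.06 over the 15 probe sets, with 4 higher and 11 lower in plakoglobin (+/-) mice, and 0.01 over all probe sets tested.

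Among the tested probe sets, the differences nearest to separation were in Tgfbr1 and Smad7. On 1420895_at Tgfbr1 averaged 2360 ± 492 in trained plakoglobin (+/-) mice and 3327 ± 1180 in trained wildtype mice (SD, n = 4 each). The dimmer Tgfbr1 probe sets, not tested, did not repeat this. They averaged 446.8 in trained plakoglobin (+/-) and 207.8 in trained wildtype mice on 1420894_at, and 606.4 and 647 on 1420893_a_at. On 1420895_at the log2 difference was -0.46 (SE 0.24; 95% interval -0.99 to 0.08), or -0.29 without trained wildtype replicate 2. Smad7 averaged 1549 ± 252 in trained plakoglobin (+/-) mice and 2106 ± 503 in trained wildtype mice (SD, n = 4 each). Its log2 difference was -0.43 (SE 0.22; 95% interval -0.93 to 0.07), or -0.30 without that same mouse. In an exact two-sided permutation test Smad7 had p = 0.0857 and Tgfbr1 p = 0.143, where 70 labelings allow a smallest p of 0.0286. With the 3 arrays of high GAPDH ratio left out, the log2 difference of Smad7 was -0.25 and that of Tgfbr1 -0.31.

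The ligands did not separate by genotype either. Tgfb1 averaged 1175 ± 588 in trained plakoglobin (+/-) mice and 1400 ± 511 in trained wildtype mice (SD, n = 4 each; log2 -0.30, SE 0.39). The log2 difference was -0.02 without trained plakoglobin (+/-) replicate 1 and -0.61 without replicate 2 of that group. Tgfb2 averaged 901.5 ± 74.8 in trained plakoglobin (+/-) mice and 1036 ± 365 in trained wildtype mice (SD, n = 4 each; log2 -0.12, SE 0.34). Tgfb3 averaged 1096 ± 1010 in trained plakoglobin (+/-) mice and 1229 ± 239 in trained wildtype mice (SD, n = 4 each). Its log2 difference of -0.78 (SE 0.56) rested on the female at 150, since it was -0.18 without that mouse, trained plakoglobin (+/-) replicate 3, and it was -1.20 without replicate 1 of that group.

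Of the other receptors, Tgfbr2 averaged 5389 ± 770 in trained plakoglobin (+/-) mice and 4741 ± 474 in trained wildtype mice (SD, n = 4 each; log2 0.18, SE 0.18). Both Acvr1b probe sets were close, with log2 differences of 0.11 (SE 0.25) on 1433725_at and -0.09 (SE 0.29) on 1422098_at. For Bmpr1a 1425492_at the log2 difference of 0.45 (SE 0.32) became 0.09 without trained plakoglobin (+/-) replicate 1 and its signal of 11951.4, and 0.73 without replicate 2 of that group. On 1425493_at it was 0.37, or 0.14 without trained plakoglobin (+/-) replicate 1 and 0.57 without trained wildtype replicate 2. The remaining 3 had log2 differences of -0.02, -0.02 and -0.04. Smad2 averaged 2176 ± 342 in trained plakoglobin (+/-) mice and 2259 ± 303 in trained wildtype mice (SD, n = 4 each), and its interval of -0.49 to 0.37 on the log2 scale is the tightest of the SMADs. Smad3 averaged 787.2 ± 397 in trained plakoglobin (+/-) mice and 879.9 ± 371 in trained wildtype mice (SD, n = 4 each; log2 -0.22, SE 0.49).

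Whether training acted differently in the 2 genotypes was asked by the interaction of both terms, in which each lone untrained mouse was assumed to vary like the trained ones. None of the 15 probe sets passed (limma, lowest adjusted p = 1), and 0% of all probe sets passed. At an unadjusted p under 0.05 there was 1 of 15, Smad7, beside 3.2% of all. Its interaction was -1.20 on the log2 scale (SE 0.51; limma adjusted p = 1). The plakoglobin (+/-) group was lower among trained mice, while the mouse labelled plakoglobin (+/-) was higher by 0.77 in the untrained pair, the pair whose Jup signals ran against the labels. Tgfb3, at -2.18 (SE 1.26), and Tgfb1, at -1.05 (SE 0.86), had intervals that include 0.

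Males and females could be set against each other among the 8 trained mice. None of the 15 probe sets passed by sex (limma, lowest adjusted p = 0.509), beside 0.0516% of all probe sets. The lowest p was that of Tgfb3, with signals of 2453.3, 1233.1, 1495.7 and 1255.1 in males and 150, 548.6, 1250.7 and 913.6 in females. The sexes overlapped only by the small gap between the male at 1233.1 and the female at 1250.7. The log2 difference of male minus female was 1.48 (SE 0.56), with p = 0.0571 in an exact two-sided permutation test, and it was 0.88 without trained plakoglobin (+/-) replicate 3. At an unadjusted p under 0.05 it was 1 of 15, beside 8.82% of all probe sets, and 0 of 15 separated the sexes without overlap, beside 5.89% of all.

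The wider pathway was read from 7 lists ordered by role, which held 89 genes, 79 of them on the array and 62 tested. By their brightest probe sets 0 of the 62 passed for training and 0 for genotype (limma), beside 0.626% and 0% of all probe sets. At an unadjusted p under 0.05 there were 7 for training, beside 8.68% of all probe sets, and 0 for genotype, beside 2.01%. The median log2 difference for training was -0.08, beside 0.00 over all probe sets, and that for genotype was 0.00, beside 0.01.

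Among the 15 tested transcriptional targets the fitted training difference at equal sex was positive in 6 and negative in 9, with a median of -0.08. These signs are of trained females against the untrained pair, and signals over all trained mice can lie the other way. Junb, at -0.60, had a median of 3023.6 over the 8 trained mice. It read 1055.6 in the untrained plakoglobin (+/-) and 1307.7 in the untrained wildtype mouse. The spread was wide in both directions. Ccn2, a matricellular protein induced by TGF-beta, read 9336 to 42545 in trained mice with a median of 17094, against 3960.5 in the untrained plakoglobin (+/-) and 3258.4 in the untrained wildtype mouse. All 8 trained mice were higher, and the fitted difference at equal sex was 1.79 on the log2 scale (SE 0.44, limma adjusted p = 0.142). Male minus female among trained mice was 1.03 (SE 0.36, limma adjusted p = 0.509). In females only, where the training difference is the same by construction, Ccn2 passed (limma adjusted p = 0.029). It also passed without trained plakoglobin (+/-) replicate 1 (limma adjusted p = 0.0414). Without the 3 arrays of high GAPDH ratio it passed too (log2 1.57, SE 0.21, limma adjusted p = 0.00243). Ccn2 passed neither in the main fit nor in any other alternative. Leaving those arrays out also raised the calls over all probe sets from 85 to 225. Col3a1, a fibrillar collagen chain, had a log2 difference of -1.05 (SE 0.30; limma adjusted p = 0.257), and of -1.30 (limma adjusted p = 0.00108) without those 3 arrays. Postn, a matrix protein of activated fibroblasts, had -1.35 (SE 0.38, limma adjusted p = 0.233), and Tagln, an actin-binding protein of smooth muscle, had -1.31 (SE 0.62). These 3 genes overlapped between trained and untrained mice. Col3a1 read 6052.7 to 25007 in trained mice, against 15703.5 in the untrained plakoglobin (+/-) and 14388.2 in the untrained wildtype mouse. Postn read 518.1 to 2814.3, against 2852.9 and 2280.8. Male minus female among trained mice was 1.38 for Col3a1 (SE 0.26, limma adjusted p = 0.197) and 1.15 for Postn (SE 0.31, limma adjusted p = 0.496). Of 6 fibroblast markers 5 had a lower fitted signal in trained mice at equal sex, and 0 passed. Only Lum was lower in every trained mouse. The summed signal of the markers lay between 75005 and 99591 in trained mice and between 95423 and 100872 in untrained mice. Their part in the values of the targets was not tested.

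Genes that hold the ligand latent or release it had a median log2 difference of -0.31 for training, with 4 of 10 higher and 6 lower and 0 passing. Ltbp4, a latent TGF-beta binding protein, read 4963.1 to 6950.3 in trained mice with a median of 6005.5, against 9821.2 in the untrained plakoglobin (+/-) and 8636 in the untrained wildtype mouse, a log2 difference of -0.67 (SE 0.21; limma adjusted p = 0.31). Its relative Ltbp1 had 0.69 (SE 0.35), and the membrane protease Mmp14 had -0.78 (SE 0.32). Nrros, which anchors latent TGF-beta on myeloid cells, had -0.999 (SE 0.54).

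By the fitted training difference at equal sex, 4 of 8 other ligands were higher and 4 lower, among them Bmp7 at -0.75 (SE 0.86) and Bmp4 at 0.65 (SE 0.29). Of the other receptors 1 of 6 was higher and 5 lower, with the co-receptors Tgfbr3, or betaglycan, at -0.84 (SE 0.53) and Eng, or endoglin, at -0.46 (SE 0.34). Of the other SMADs and nuclear partners 3 of 8 were higher and 5 lower. The inhibitory Smad6 read 895.1 to 1829.7 in trained mice, against 1922.7 and 2234.3 in the untrained mice, a log2 difference of -0.69 (SE 0.31; limma adjusted p = 0.582). Foxh1, a DNA-binding partner of SMAD2, had 1.02 (SE 0.65; limma adjusted p = 0.756). It passed at 1.62 when the 3 arrays with a GAPDH ratio above 2 were left out (limma adjusted p = 0.0289), and in no other alternative. In that setting 225 of all probe sets passed, against 85 in the main fit. The inhibitors and turnover genes (4 of 9 higher, 5 lower) and the SMAD-independent branch (4 of 7 higher, 3 lower) held smaller differences, such as Fstl1 at -0.44 (SE 0.27) and the kinase Mapk14 at -0.29 (SE 0.29).

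By genotype the same lists had medians between -0.12, of the inhibitors, and 0.11, of the other SMADs and nuclear partners. Among the larger log2 differences were Tagln at -0.77 (SE 0.54), the coactivator Crebbp at 0.73 (SE 0.55), the ubiquitin ligase Traf6 at 0.66 (SE 0.47) and Chrd, a secreted antagonist of bone morphogenetic proteins, at 0.54 (SE 0.38), all with a limma adjusted p of 1.

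**Figure D4:**
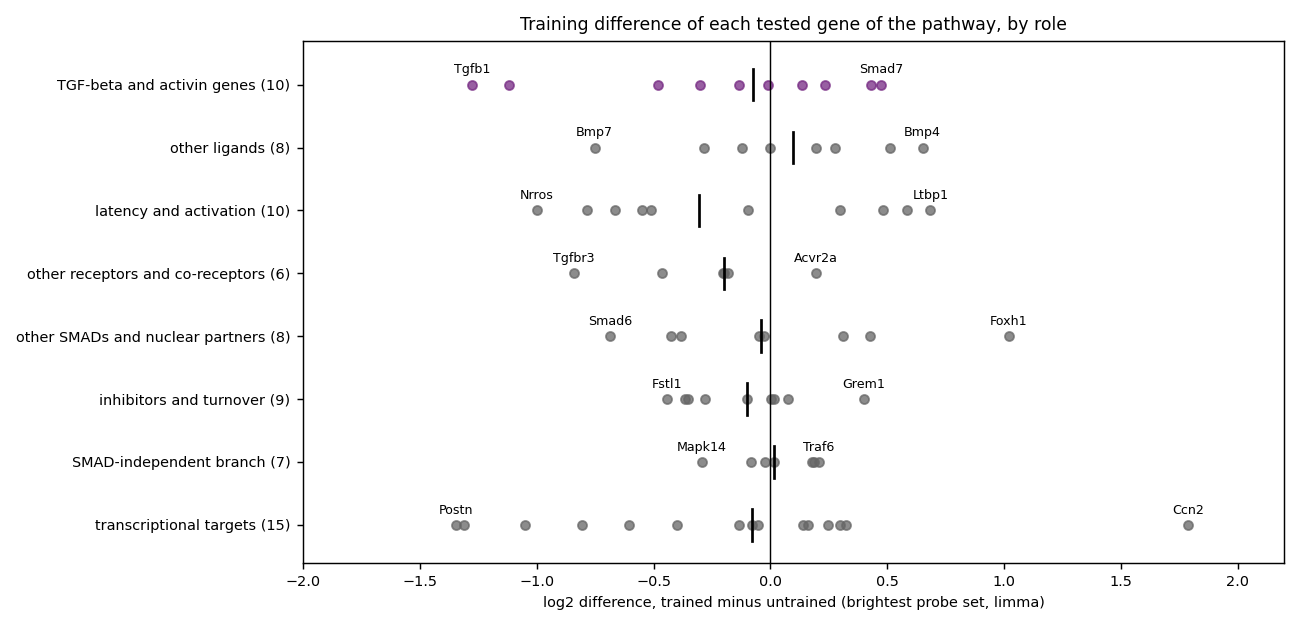
Log2 difference of trained minus untrained mice, at equal sex, for each tested gene by its brightest probe set. Each role has a row with the number of genes in brackets, black bars at the median and names at the lowest and highest gene. The medians of the 7 lists lie between -0.31 and 0.09, and Ccn2 at 1.79 and Postn at -1.35 stand farthest out.

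The 3 genes with the largest training differences by their brightest probe sets, Tgfb1, Tgfb3 and Tgfb2, were set against all 8365 tested genes by the root mean square difference of standardised log2 signals over the 10 mice. The median distance was 1.35. Nearest to Tgfb1 were Dph2 at 0.384, Ltbp4 at 0.404 and Tnxb, a matrix glycoprotein, at 0.425. Nearest to Tgfb3 were Bcar1 at 0.252, Ctsb at 0.372 and Psmc4 at 0.389, and nearest to Tgfb2 were Myo9b at 0.263, Camkk2 at 0.321 and Rnase1 at 0.388. These are descriptions of 10 arrays, with no test.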

How the data were processed

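The unit of the deposited values is intensity on a linear scale, as MAS5 5.0 gives it, per the submitters' processing notes. The authors' table held no detection calls. The number of arrays limits the precision, and the p-values rest on the spread between individual mice. Each untrained group holds a single mouse, so in the training fit that spread comes mainly from the trained mice. In the interaction fit it comes from the trained mice alone.

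Values under 104 (the 10th percentile) were set to 104 before log2. Control probe sets (64) and those whose mean log2 fell under the 40th percentile were left out, and 13576 were tested, two-sided, with limma 3.58.1 in R 4.3.3 (lmFit, eBayes with trend, Benjamini-Hochberg). Genotype and sex shared a fit of the 8 trained mice. Training was fitted over all 10 mice with genotype and sex as terms. Because both untrained mice were females, its difference rests on trained females. Each gene stood for its brightest probe set unless another is named. Symbols came from the platform annotation, in which 20393 probe sets had 1 symbol, 691 several and 1606 were not listed. The fits were tested on simulated data. Exact permutation tests took no covariates.

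Named were all 10 genes, genes among the 4 largest differences of each pathway list, and the 3 genes nearest to each of 3 members. Members and lists were chosen with earlier results of these data known. Alternatives changed the normalization, floor, filter, eBayes setting, terms or samples.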

Additional observations from a re-analysis of the deposited data

Results flagged for a closer look

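Across 44 groups of 4 trained mice (22 probe sets in each genotype), signals were looked at on both the log2 and the linear scale. On the linear scale only, 1 mouse stood apart from the rest of its group. On the dim Smad3 probe set 1450471_at, trained plakoglobin (+/-) replicate 2 read 982.6, against 160.5 to 234.5 in the other mice of its group. Chance alone flags about 1 in 20 groups on a single scale. The same mouse read 1079.1 on the brighter Smad3 probe set, where replicate 3 was higher at 1179.1.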

How the results depend on the processing

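Over 32 results for the 10 genes and all their alternatives, 574 of 624 values kept their direction and their side of the threshold, 36 changed sign and 14 lost the call, all 14 for Acvr1b 1422098_at. That probe set, which passed the filter only through the trained mice, kept its call in 6 of 20 alternatives (log2 1.59 to 2.29, limma adjusted p 0.0131 to 0.261). The count of called probe sets of the 10 genes for training was 0 with the floor at the 25th percentile, with no filter, with the filter at the 60th percentile (which removed it), without the 3 arrays of high GAPDH ratio, in females only, and without any single mouse (0 to 0). It was 1 gene when all probe sets of a gene were used in place of the brightest. Of all probe sets, training called 85, against 225 without those 3 arrays and 10 to 87 without single mice (10 without the untrained plakoglobin (+/-) mouse, 34 without the untrained wildtype mouse). Other pathway genes called were 3 without the 3 arrays, 1 in females only and 0 to 1 without single mice. Sex called 7, against 13 with quantile normalization or no genotype term, 15 with the higher floor, 2 with no filter, 11 with the stricter filter, 1 with no trend, 17 without the 3 arrays and 1 to 12 without single mice. The interaction called 0, against 1 with quantile normalization, 66 with no filter, 1 without the 3 arrays and 0 to 1 without single mice, and could not be fitted without an untrained mouse. Differences that changed sign, none of them called, were for genotype Tgfb2 0.13, Acvr1b 1422098_at 0.086 and Bmpr1a 1425491_at 0.17 without the 3 arrays, and Smad2 0.0037 and Smad3 0.058 with all 10 mice in 1 fit, and for training Tgfbr2 0.018 with no sex term. Without single mice the genotype differences ran from -0.41 to 0.032 (Tgfb2), -0.30 to 0.087 (Acvr1b 1422098_at), -0.092 to 0.28 (Acvr1b 1433725_at), -0.15 to 0.10 (Bmpr1a 1425491_at), -0.21 to 0.11 (1425494_s_at), -0.15 to 0.076 (1451729_at), -0.14 to 0.068 (Smad2) and -0.50 to 0.061 (Smad3). The training differences ran from -0.052 to 0.025 (Tgfbr2), -0.66 to 0.061 (Bmpr1a 1425492_at), -0.54 to 0.47 (1425493_at), -0.29 to 0.016 (Smad2), -0.55 to 0.82 (Smad3) and -0.12 to 1.07 (Smad7). Apart from the filter at the 60th percentile, the cause was not tested. No paired analysis was possible because littermates cannot be told from the labels. With 2 untrained mice, a probe set near the floor such as Acvr1b 1422098_at has little signal over background in the untrained group.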
